A study of Mus musculus with 2 samples.

Results

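Clustered histone genes were examined in DNase-seq libraries of thymus, an assay in which DNase I cuts accessible DNA and the cut sites are sequenced. The members are protein-coding genes of GENCODE M21 whose symbols begin with Hist1h, Hist2h, Hist3h or Hist4, chosen by symbol alone. This gave 67 of 21728 protein-coding genes on the autosomes and chromosome X: 6 of the linker histone H1, 18 of H2A, 18 of H2B, 12 of H3 and 13 of H4. The tissue came from 2 female mice of 36 days, the F1 hybrid B6CASTF1/J, with no treatment named in the labels. The labels number the females and their tissue samples separately but give both the same donor identifier, so that the libraries come from different mice is taken from the sample descriptions and biological replicate numbers. Each library is called mouse 1 or mouse 2 after its replicate number. The labels give a single condition, so no test between groups was possible and every value below is a description of these libraries.

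Replication-dependent histone genes encode the proteins that package newly copied DNA. They are transcribed in S phase under the coactivator NPAT, lie in clusters, mostly lack introns, and give mRNAs that end in a stem-loop bound by SLBP rather than in a poly(A) tail. The thymus holds many dividing thymocytes. In bulk tissue a site open in few cells and a site weakly open in many cells cannot be told apart.

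Member promoters were open far more often than promoters in general. A promoter was called open where a peak lay within 1000 bp of any annotated start site. By this rule 58 of 67 members (86.6%) had a peak in both mice, beside 56.5% of all protein-coding genes. All 13 H4 genes were open in both mice, as were 11 of 12 H3, 15 of 18 H2A, 15 of 18 H2B and 4 of 6 H1 genes. A further 2 members were open in mouse 2 alone, and 7 in neither mouse. Among open members the strongest promoter peak had a median signal (a depth-normalised peak height) of 8.39 in mouse 1 and 6.98 in mouse 2, while the medians over all open genes were 4.94 and 10.4. Members therefore lay above the general median in mouse 1 and below it in mouse 2, at the 71.6th and the 38.5th percentile of open genes. The order in mouse 2 depends on which members are counted. The open ones among the 11 members with at least 90% unique sequence in their windows had medians of 7.82 and 13.2. Both lay above the general median of their mouse. These 11 are H1 and H4 genes and Hist1h2be, with no H2A or H3 gene, so uniqueness and class cannot be told apart there. The open ones among the 57 members with at least 50% unique sequence had medians of 8.54 and 7.40, below the general median in mouse 2.

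Accessible DNA also filled more of the member windows of this width. Runs of bases with a significant local cut rate covered a median of 59.3% of the promoter window of open members in mouse 1 and 52.3% in mouse 2, beside 28.9% and 27.0% for all open genes. The size of this gap depended on the window. Counted whether open or not and averaged over the mice, members had a median of 48.7% beside 13.9% over all genes, and beside 26.9% with windows at the 5′ end of each gene only. Within 250 bp of the start codon, open members and all open genes both had medians of 100% in each mouse. Footprints are short protected stretches inside accessible DNA. Their numbers were similar among open genes, with medians per window of 11 and 10 in open members and 11 and 11 in all. Counted whether open or not and averaged over the mice, members had a median of 10.5 beside 5.5 over all genes. With windows at the 5′ end only, it was 10.5 beside 4. Within 250 bp of the start codon, open members had medians of 7 and 6 and all open genes 6 and 6. Because members stand close together, many windows overlap. In mouse 1, 27 members shared their strongest peak with another member, and in mouse 2, 23 did, so members are not independent of one another. The 88 distinct peaks of mouse 1 in member windows overlapped a peak of mouse 2 in 79 cases.

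**Figure D1:**
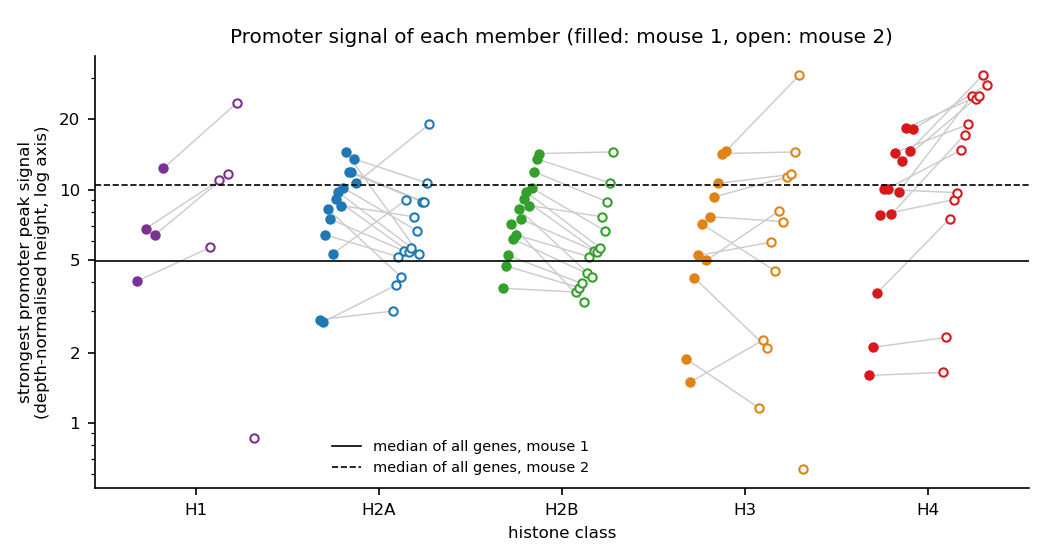
Signal of the strongest promoter peak of each member (log axis, depth-normalised height) by histone class, filled points for mouse 1 and open points for mouse 2, with grey lines joining the values of 1 gene and black lines at the medians over all open genes (4.94 and 10.4). H2B points fall from mouse 1 to mouse 2 with 1 exception, and H4 points rise with 1 exception. Over all genes open in both mice, 11922 of 12285 rise.

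The H4 genes held the strongest promoters. Hist1h4c had a signal of 18.2 in mouse 1 and 28.0 in mouse 2, Hist1h4h of 18.3 and 25.3, and Hist1h4a of 14.7 and 30.9. All 3 were above the general median in each mouse. Next came Hist1h4i (13.3 and 24.5), Hist1h4k (9.73 and 25.1) and Hist1h4d (14.4 and 19.0). Outside the main clusters, Hist4h4 on chromosome 6 reached 7.82 and 17.2, and Hist2h4 on chromosome 3 reached 10.1 and 14.8. Signal was higher in mouse 2 for 12 of 13 H4 genes, beside 11922 of the 12285 genes open in both mice. The H4 exception was Hist1h4b at 10.01 and 9.70. Hist1h4f, at 7.79 and 9.04, differed little between the mice.

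The weakest H4 values came from near-identical copies. Hist1h4n had signals of 1.595 and 1.64 and Hist1h4m of 2.11 and 2.32, whereas Hist1h4j had 3.59 and 7.51. Only 4.01% and 4.06% of the 31-base words in the windows of Hist1h4n and Hist1h4m occur once in the reference genome, beside 80.3% for Hist1h4j. How reads that map to several places were treated was not given in the sources used here, so the part of sequence copies in these low values was not tested.

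H4 promoters shared 1 short element. The letters GGTCCG, the core of the H4-specific promoter site known for binding HINFP, were searched on both strands from 250 bases before to 50 after each gene start. They occurred in 12 of 13 H4 promoters, beside 9.66% of all promoters of that length, in 2 of 12 H3 promoters, in 1 of 18 H2B promoters, and in no H2A or H1 promoter. In all 12 H4 promoters the letters stood on the coding strand, upstream of the annotated start, with centres at -82.5 to -52.5 bp from the start codon (median -77.5 bp, negative is upstream). The sites are shown because footprints overlap them. Each is given as 30 bases on the strand of the gene, from the GRCm38 (mm10) C57BL/6J reference, with the element in capitals.
Hist1h4c, chr13:23698487-23698516, minus strand: agttttcaaccaGGTCCGcagaaggcctat
Hist1h4h, chr13:23531027-23531056, plus strand: agtcttcaatcaGGTCCGaaaacactgcat
Hist1h4d, chr13:23581509-23581538, plus strand: ggttttcaaacaGGTCCGcattggtattat
Hist1h4b, chr13:23756931-23756960, plus strand: agttctcaaccaGGTCCGataagagcctat
Hist1h4f, chr13:23551697-23551726, minus strand: agtcctctaaaaGGTCCGcattcgccatat
Hist1h4i, chr13:22041391-22041420, minus strand: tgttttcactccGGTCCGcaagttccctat
Hist1h4j, chr13:21735004-21735033, plus strand: ggttctcatttcGGTCCGcccgctacagta
Hist1h4k, chr13:21750568-21750597, minus strand: ggttctcatttcGGTCCGcccgccgcagta
Hist2h4, chr3:96263362-96263391, minus strand: agttttcaatctGGTCCGatcctctcatat
Hist4h4, chr6:136804446-136804475, minus strand: tgttttcaatcaGGTCCGctcccaggaaat
Hist1h4m (chr13:21811687-21811716) and Hist1h4n (chr13:21832226-21832255) have the same 30 bases as Hist1h4i. Every one of these 12 sites overlapped a deposited footprint, by at least 1 base, in mouse 1 and again in mouse 2. Over all open promoters, 30.9% of such matches in the 300 bases before the start codon overlapped a footprint in mouse 1 and 30.8% in mouse 2. In the window searched around the gene start, these shares were 37.5% and 36.4%. The footprints at the H4 sites were 12 to 58 bp wide. At Hist1h4j they met only the end of the element. It ends at chr13:21735021, and the footprints begin at 21735021 in mouse 1 and 21735020 in mouse 2. Upstream of their starts, Hist1h4m and Hist1h4n had 0% unique words, so their footprints need not be separate observations.

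Hist1h4a, which had the highest signal of all members in mouse 2, was the H4 gene without the exact letters. Stretches that differ from the element at 1 base were centred at -42.5 and -114.5 bp from its start codon, and both overlapped footprints in both mice. They are shown for comparison with the 12 sites above, with the aligned bases in capitals, on the minus strand. How often other promoters hold such near matches, or footprints on them, was not tested, so they are not counted as H4 elements.
Hist1h4a, chr13:23761185-23761214: cagctatataaaGGACCGactctcagctct
Hist1h4a, chr13:23761257-23761286: ttatgacgtcacCGTCCGgcgggcgggttt
Common promoter motifs were also counted in H4 promoters. The CCAAT box CCAAT was found in 4 of 13, beside 38.9% of all promoters and at least 83.3% in each other histone class. The GC box GGGCGG was found in 10 of 13 H4 promoters and 4 of 6 H1 promoters, beside 43.4% of all promoters, and in 7 of 18 H2A, 5 of 18 H2B and 2 of 12 H3 promoters.

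Another H4 footprint lay inside the coding sequence. The stretch described here, and the upstream one below, were placed where footprints piled up in these same libraries. High counts in H4 genes therefore follow from that choice. The coding stretch is the 30 bases from 85 to 114 bp after the first base of the start codon. Among the 11 H4 genes with at least 50% unique words, it overlapped a footprint in 10 in mouse 1 and in 11 in mouse 2. These 30 bases were nearly the same in every H4 gene, with a median identity of 96.7% between genes and 5 distinct sequences. The 30 bases from 90 to 61 bp before the start codon also overlapped footprints in 10 and 11 genes, but had a median identity of 26.7%. The coding stretches of 2 genes are shown, because the footprint falls on a sequence that the class repeats.
Hist1h4k, chr13:21750391-21750420, minus strand: gcatcaccaagcccgccatccgccgcctgg
Hist4h4, chr6:136804265-136804294, minus strand: gcattaccaagcccgctatccggcggttgg
The same coding position was footprinted in 11 and 12 of 15 H2B genes, where the stretches had a median identity of 100%, but in only 1 and 5 of 13 H2A genes, whose stretches were also alike (96.7%). In H3 genes it was footprinted in 4 and 3 of 10, at a median identity of 100%, and in H1 genes in 5 and 4 of 5, at a median identity of 30%. Identity within a class tells how alike its stretches are, not how readily DNase I cuts them. DNase I cuts some sequences more readily than others, and its part in footprints on repeated coding sequence was not tested.

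**Figure D2:**
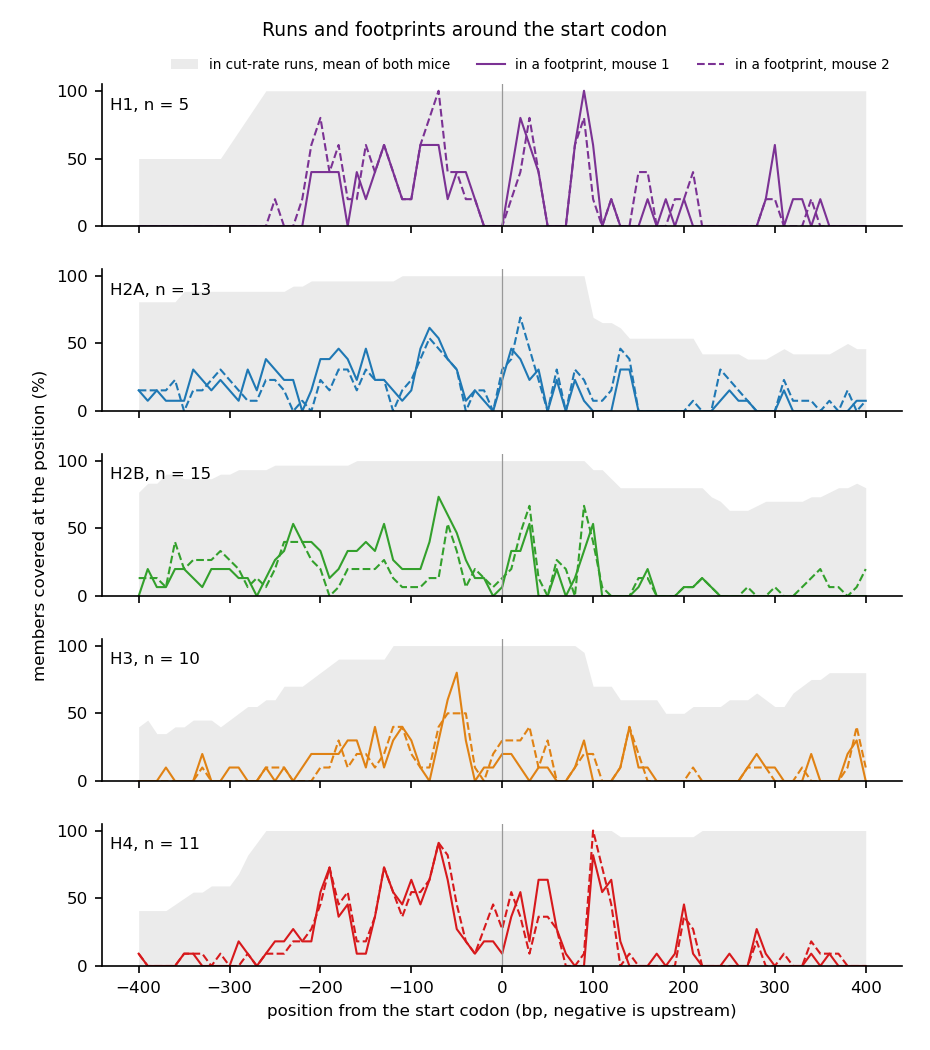
Share of members covered at each position from the start codon (bp, negative is upstream) by footprints in mouse 1 (solid) and mouse 2 (dashed) and by cut-rate runs (grey, mean of both mice), for members with at least 50% unique words and without germline members. In the H4 panel (n = 11) footprint coverage reaches 90.9% at 70 bp before the start codon in mouse 1 and 100% at 100 bp after it in mouse 2.

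H2A and H2B genes were mostly arranged as divergent pairs with 1 shared promoter. There were 12 such pairs, with 278 to 334 bp between the start codons (median 299). Of these, 9 were open in both mice, and the bases between the codons lay wholly in cut-rate runs in all 9. The strongest pair, Hist1h2bf with Hist1h2ad, had a signal of 13.5 in mouse 1 and 10.7 in mouse 2. The Hist2h2ac and Hist2h2be pair on chromosome 3 followed at 11.9 and 8.86. The lowest mean of the 2 mice was that of Hist1h2ae with Hist1h2bg, at 6.39 and 5.15. Every one of the 9 pairs was higher in mouse 1, while most other genes were higher in mouse 2.

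The remaining pairs showed the same order of the mice with smaller or larger gaps. Hist1h2ak with Hist1h2bn fell furthest, from 8.24 in mouse 1 to 4.22 in mouse 2, a log2 ratio of -0.97. Its strongest peak differed between the mice, chr13:21753761-21754120 (45.3% GC) in mouse 1 and chr13:21753601-21753860 (66.5% GC) in mouse 2. That of Hist1h2ae with Hist1h2bg differed likewise, at 47.2% and 66.0% GC. Hist1h2an with Hist1h2bp had the smallest gap, 8.54 and 7.64, a log2 ratio of -0.16. Hist1h2ac with Hist1h2bc had 9.74 and 5.64, and Hist1h2bl with Hist1h2ai had 9.09 and 5.42. The pairs of the small middle group on chromosome 13 lay between these, Hist1h2ag with Hist1h2bj at 10.2 and 6.67 and Hist1h2ah with Hist1h2bk at 7.46 and 5.46. The median log2 ratio over the 9 pairs was -0.45.

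H2A and H2B genes outside the pairs spread more widely. Hist2h2aa2 on chromosome 3 had 10.7 and 19.1, the highest H2A signal in mouse 2, and its near copy Hist2h2aa1 had 5.30 and 9.05, with 40.5% and 43.2% unique words. Hist2h2bb had the highest H2B signal, 14.3 and 14.5, and was the single H2B gene higher in mouse 2 by the assigned peaks, by 0.02 on the log2 scale. The lowest H2A values were those of Hist1h2ab (2.70 and 3.88) and Hist1h2af (2.77 and 3.01). The lowest means among H2B genes open in both mice were those of Hist1h2bm (3.77 and 3.63), Hist1h2be (4.70 and 3.80) and Hist1h2bb (5.21 and 3.96). At its own start codon, far from its annotated start, Hist1h2be had 5.43 and 6.32 and was also higher in mouse 2. Hist1h2bh had 7.10 and, the lowest H2B value of mouse 2 by assigned peaks, 3.28. Hist2h2ab had 11.9 and 8.86 because its window reaches the peak of the Hist2h2ac pair, and within 250 bp of its own start codon it had 3.78 and 6.38.

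The promoters of H2A and H2B genes held other motifs than those of H4. The CCAAT box, bound by NF-Y, was found in all 18 H2A and all 18 H2B promoters, beside 38.9% of all promoters. The octamer ATTTGCAT, bound by POU2F1, was found in 8 of 18 H2B and 7 of 18 H2A promoters, beside 1.59% of all. The letters TTTNGCGC, an E2F site, were found in 7 of 18 H2A and 7 of 18 H2B promoters, beside 1.68% of all. A divergent pair counts a shared site for both genes. The TATA box TATAAA was found in 37 of 67 members, beside 12.7% of all promoters. Within open promoters, 19 of 30 member matches to TATAAA overlapped a footprint in mouse 1 and 18 of 30 in mouse 2, beside 14.6% and 16.4% over all open promoters.

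**Figure D3:**
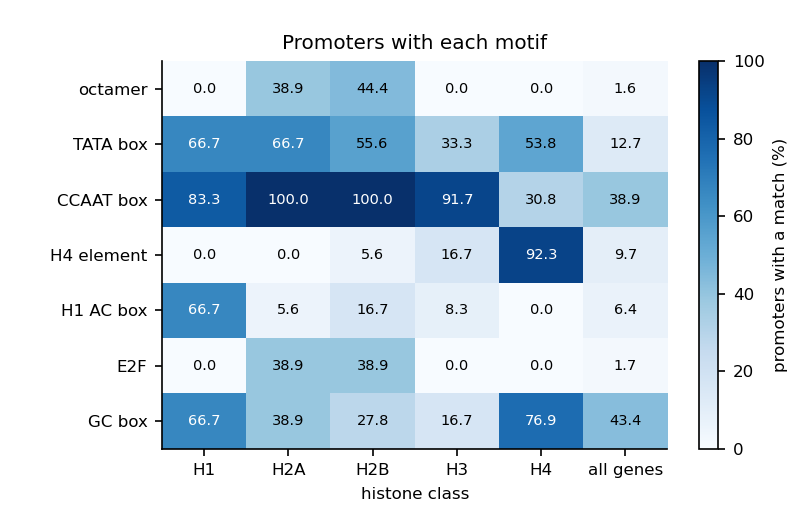
Share of promoters (%, 250 bases before to 50 after the gene start) with each motif on either strand, by histone class and over all 21728 genes. H4 element matches stand at 92.3% in H4, and octamer and E2F matches are found in H2A and H2B among the classes.

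Footprints separated the E2F site from the octamer. The 300 bases before the member start codons held 8 distinct E2F sites, and 6 overlapped a footprint in both mice. The other 2 lie in promoters with no peak and no unique word. The 11 distinct octamer sites overlapped footprints at 3 sites in mouse 1 and at 1 in mouse 2, and at no site in both. Over all open promoters, 56.2% and 52.5% of E2F matches and 15.1% and 11.9% of octamer matches in that window overlapped footprints. These E2F sites are shown on the strand of the named gene, in capitals, the last of them from a promoter without a peak.
Hist1h2ad, chr13:23574381-23574410, plus strand: cataggtccttTTTCGCGCccagcgaataa
Hist1h2ag, chr13:22042993-22043022, minus strand: cgaacgttcctTTTCGCGCccagagaaaac
Hist1h2an, chr13:21787282-21787311, minus strand: cgtaggctcttTTTCGCGCttggagaatcc
Hist1h2ao, chr13:21810374-21810403, plus strand: cataggcccttTTTTGCGCccagagaaaac
Octamer sites of H2B genes are shown likewise, the first without a footprint in either mouse and the second with one in mouse 1.
Hist2h2be, chr3:96221062-96221091, plus strand: tttgagacctaATTTGCATaaggcgttcat
Hist1h2bc, chr13:23684071-23684100, plus strand: ctggaaacttcATTTGCATaatcccaccca
No footprint over these letters says only that none was deposited there.

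An open and a closed divergent promoter are shown side by side, with motif matches in capitals. The first, between Hist1h2bl and Hist1h2ai, is 278 bases long and lay wholly in cut-rate runs, with 6 and 8 footprints in the 2 mice. The second is 205 bases from the middle of the promoter of Hist1h2ba and Hist1h2aa. Between these 2 start codons there was no peak in the shorter list, no footprint and no run base in either mouse. The wider promoter window of each gene held 2 footprints in mouse 1 and 0 in mouse 2. Runs covered 4.50% and 3.90% of it.
Hist1h2bl and Hist1h2ai, chr13:21716144-21716421, plus strand: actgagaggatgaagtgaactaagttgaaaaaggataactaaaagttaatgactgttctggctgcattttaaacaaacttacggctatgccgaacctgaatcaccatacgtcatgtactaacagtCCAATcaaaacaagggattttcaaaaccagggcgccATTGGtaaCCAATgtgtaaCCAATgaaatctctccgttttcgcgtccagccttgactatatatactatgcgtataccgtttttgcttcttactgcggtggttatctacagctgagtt
Hist1h2ba and Hist1h2aa, chr13:23934207-23934411, plus strand: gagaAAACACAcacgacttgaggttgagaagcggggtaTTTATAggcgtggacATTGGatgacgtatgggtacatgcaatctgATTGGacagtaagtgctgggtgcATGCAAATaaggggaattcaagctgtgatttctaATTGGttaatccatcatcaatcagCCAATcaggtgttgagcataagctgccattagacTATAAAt
Both hold CCAAT boxes on either strand, and the closed promoter also holds an octamer and TATA boxes.

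Among H3 genes, Hist1h3g (10.6 and 11.6) and Hist1h3e (9.30 and 11.3) had the strongest peaks of their own. Hist1h3a was assigned 14.7 and 30.9, but this is the peak of Hist1h4a nearby, and within 250 bp of its own start codon it had 3.22 and 3.12. Hist2h3b on chromosome 3 was likewise assigned the peak of Hist2h2bb (14.3 and 14.5) and had 4.29 and 5.49 at its own start codon. The lowest means among H3 genes open in both mice were those of Hist1h3d (1.88 and 1.15), Hist2h3c2 (1.49 and 2.27) and Hist1h3i (4.19 and 2.09). Of Hist2h3c2, only 20.3% of the words were unique. Hist1h3h had 7.65 and 7.29, and Hist1h3b 4.96 and 8.11. Hist1h3c was assigned 5.21 and 5.95, and Hist1h3f 7.10 and 4.47. In mouse 1 these are the peaks of Hist1h2bb and Hist1h2bh. Within 250 bp of its own start codon Hist1h3c had 4.32 and 5.95, and Hist1h3f 5.38 and 4.47. CCAAT boxes were found in 11 of 12 H3 promoters.

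H1 genes had promoters of their own kind. Hist1h1c was the strongest, with 12.3 in mouse 1 and 23.5 in mouse 2. Hist1h1e had 6.38 and 11.6, Hist1h1a 6.80 and 10.95, and Hist1h1b 4.05 and 5.65. All were higher in mouse 2, as were most genes open in both mice. The letters AAACACA, the AC box known from H1 promoters, were found in 4 of 6 H1 promoters, beside 6.44% of all promoters, and in 5 of 6 within 300 bases before the start codon. In those 5 genes the site was centred at -185 to -151 bp from the codon. The 5 sites are shown with the element in capitals, because footprints divide them.
Hist1h1c, chr13:23738683-23738712, plus strand: gtgaagtgtaacAAACACAagttgggcgca
Hist1h1d, chr13:23554898-23554927, plus strand: ttgaggggcaacAAACACAgccacaaggca
Hist1h1b, chr13:21780724-21780753, minus strand: tggggactaacAAACACAatttgggattgt
Hist1h1e, chr13:23622655-23622684, minus strand: tgaggtgtaacAAACACAactccgcatctg
Hist1h1t, chr13:23695685-23695714, plus strand: tggggggaaaagAAACACAaatgcccctcc
The sites of Hist1h1c, Hist1h1d and Hist1h1b overlapped a footprint in both mice, that of Hist1h1e in mouse 2 alone, and that of Hist1h1t in neither. Over all open promoters, 4.93% and 5.23% of AC box matches in that window overlapped a footprint in mouse 1 and mouse 2. The 6 other distinct AC box matches before member start codons, in H2A, H2B and H3 genes, overlapped no footprint.

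The 9 members without a peak in both mice fell into groups with different sequence and annotation. Hist1h2bq, Hist1h2ao, Hist1h2ap and Hist1h2br form 2 divergent pairs in which 0% of the words in the windows are unique, and had no peak and no run base in either mouse, also in the longer peak list. Between the annotated starts, all 263 bases of the shorter region match the other region on the opposite strand. Words of 31 bases cannot tell these copies apart, and the part of this in the missing peaks was not tested. Hist2h3c1, with 19.3% unique words, had no peak in mouse 1 and 0.63 in mouse 2.

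Hist1h1t, Hist1h2aa and Hist1h2ba, which are known from male germ cells, had missing or weak peaks although their windows were unique (89.0% to 100%). Hist1h2aa and Hist1h2ba had no peak in either mouse in the shorter list, and a weak one of 0.281 and 0.242 in the longer list. Hist1h1t had none in mouse 1 and a peak of 0.86 in mouse 2, where it had 7 footprints and 35.8% of its window in runs. The lowest values among the other members with at least 50% unique words and a peak in both mice were higher, those of Hist1h3d given above. Within 250 bp of its own start codon, however, Hist1h3d had 1.88 and 0.93, in mouse 2 close to Hist1h1t.

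The remaining member without a peak, Hist1h1d, had an annotated start far from its coding sequence. GENCODE M21 places the start 1828 bp upstream of the start codon, and within 250 bp of the codon the signal was 11.3 in mouse 1 and 14.4 in mouse 2. Hist1h2be was similar, with an annotated start 35138 bp upstream of the codon, where it was assigned the values given above, lower than those at the codon. Counted within 1000 bp of the start codon in place of the annotated starts, 59 of 67 members were open in both mice, beside 39.1% of all genes.

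The signal ratio of the mice was lower at members than at genes in general. It compares the strongest peak of each mouse, which need not lie at the same place in both. Over the 58 members open in both mice the median log2 ratio of mouse 2 to mouse 1 was -0.05, and 28 of 58 were higher in mouse 2. Over all 12285 genes open in both mice the median was 1.27, and 11922 were higher in mouse 2. The classes differed, with medians of -0.43 in H2A, -0.43 in H2B, 0.13 in H3, 0.55 in H4 and 0.78 in H1. The lowest ratio, -1.45, belonged to Hist3h2a on chromosome 11, with 14.5 in mouse 1 and 5.29 in mouse 2. The highest, 1.37, belonged to Hist1h4k.

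Base composition moved with this ratio. The strongest peaks of members had a median GC content of 47.2% in mouse 1 and 53.5% in mouse 2. Over all genes it was 64.2% and 66.3%. Below, the GC content of a gene is the mean over its strongest peaks in the 2 mice. Over all genes the ratio was higher where the peak held more G and C, from a median of -0.34 between 40 and 45% (25 genes, members included) to 0.05 between 45 and 50%, 0.46 between 50 and 55%, and 1.37 between 65 and 70%. Within the band of 45 to 50% the 20 members had a median of -0.37, and 17 lay below the band's median of 0.05 over 248 genes. Between 50 and 55% the 13 members had a median of 0.13, and 8 lay below 0.46. Between 40 and 45%, 3 of the 6 members lay below the band's median. With all genes in 5 equal bins of peak GC content, all 15 H2A and all 15 H2B genes lay below the median ratio of their bin. The median difference was -1.08 in each class, though many of these share a peak. The lowest bin spans 38.9 to 58.9% with a median ratio of 0.65, while H2A and H2B peaks had median GC contents of 49.3% and 48.5%. These bins therefore match GC content less closely than the bands above. In H4 genes 9 of 13 were lower and the median difference was -0.17. With 1 library each, a difference between mice, taken as separate animals, and a difference between library preparations cannot be told apart.

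**Figure D4:**
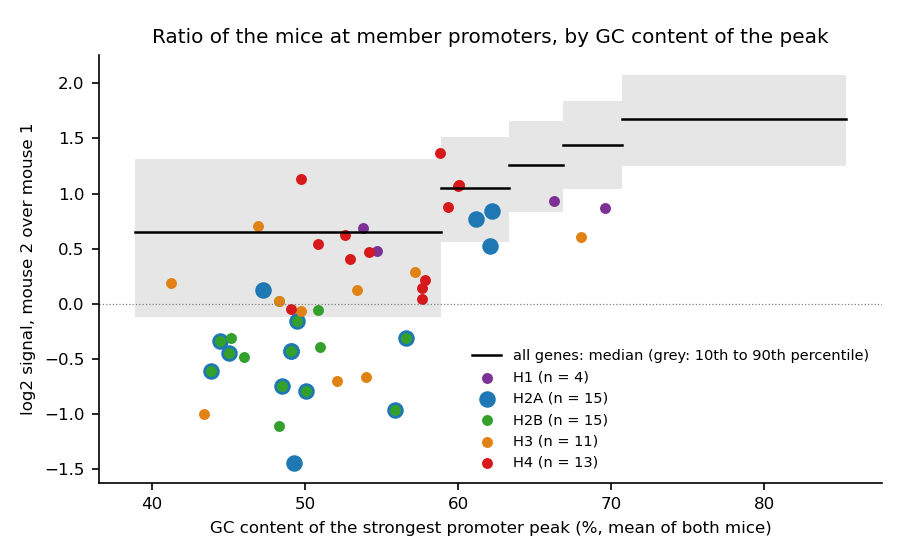
Log2 ratio of mouse 2 to mouse 1 against the GC content of the strongest promoter peak (%), for the 58 members open in both mice by class, with the median (black) and the 10th to 90th percentile (grey) over all genes in 5 equal bins of GC content. H2A points are drawn larger so that they show beneath H2B points of the same peak, and 48 of 58 members fall in the lowest bin.

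Members stood in compact clusters. With members joined at gaps of up to 200 kb, chromosome 13 held 3 groups of 18, 5 and 31 members, chromosome 3 held 10, chromosome 11 held 2 and chromosome 6 held 1. The largest group, chr13:23531050-23934851, spans 404 kb, and member windows cover 11.9% of it with 1000 bp added at each end. They held 73.3% of its 60 peaks in mouse 1 and 78.6% of its 56 peaks in mouse 2. The group at chr13:21715763-21837530 had 90.5% of 21 peaks and 79.3% of 29 peaks in member windows, which cover 20.4% of it. Peaks inside these 2 groups numbered 14.8 and 16.97 per 100 kb in mouse 1. Between the second and the third group on chromosome 13, where 35 of 39 protein-coding genes are vomeronasal receptors and none of those was open, there were 1.89 peaks per 100 kb in mouse 1 and 3.30 in mouse 2. Between the first and the second group, with 3 other protein-coding genes, there were 11.8 and 15.8. The groups beside this gap had 16.97 and 23.4 (first) and 28.5 and 47.6 (second, from 3 and 5 peaks). Inside the largest group, which does not flank it, there were 14.8 and 13.8. Both gaps were therefore less dense than the groups beside them, and the gap with vomeronasal genes far less dense.

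Open promoters stood in every cluster. On chromosome 13, 14 of 18, 5 of 5 and 27 of 31 members were open in both mice, and on chromosome 3, 9 of 10. Both chromosome 11 members were open, Hist3h2a as given above and Hist3h2ba at 6.12 and 4.37. The longest cut-rate run in the largest group was 3083 bp in mouse 1 and 2163 bp in mouse 2, across Hist1h1e in each. On chromosome 3 the longest run, 2998 and 2439 bp, joined Hist2h2ab, Hist2h2ac and Hist2h2be. Other protein-coding genes in the clusters were few. Trim17 lies beside Hist3h2a and was assigned the same peak. In the largest group Hfe was open (4.52 and 5.45), and the other 5 genes, Trim38 and 4 Slc17a transporter genes, had no promoter peak in either mouse.

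**Figure D5:**
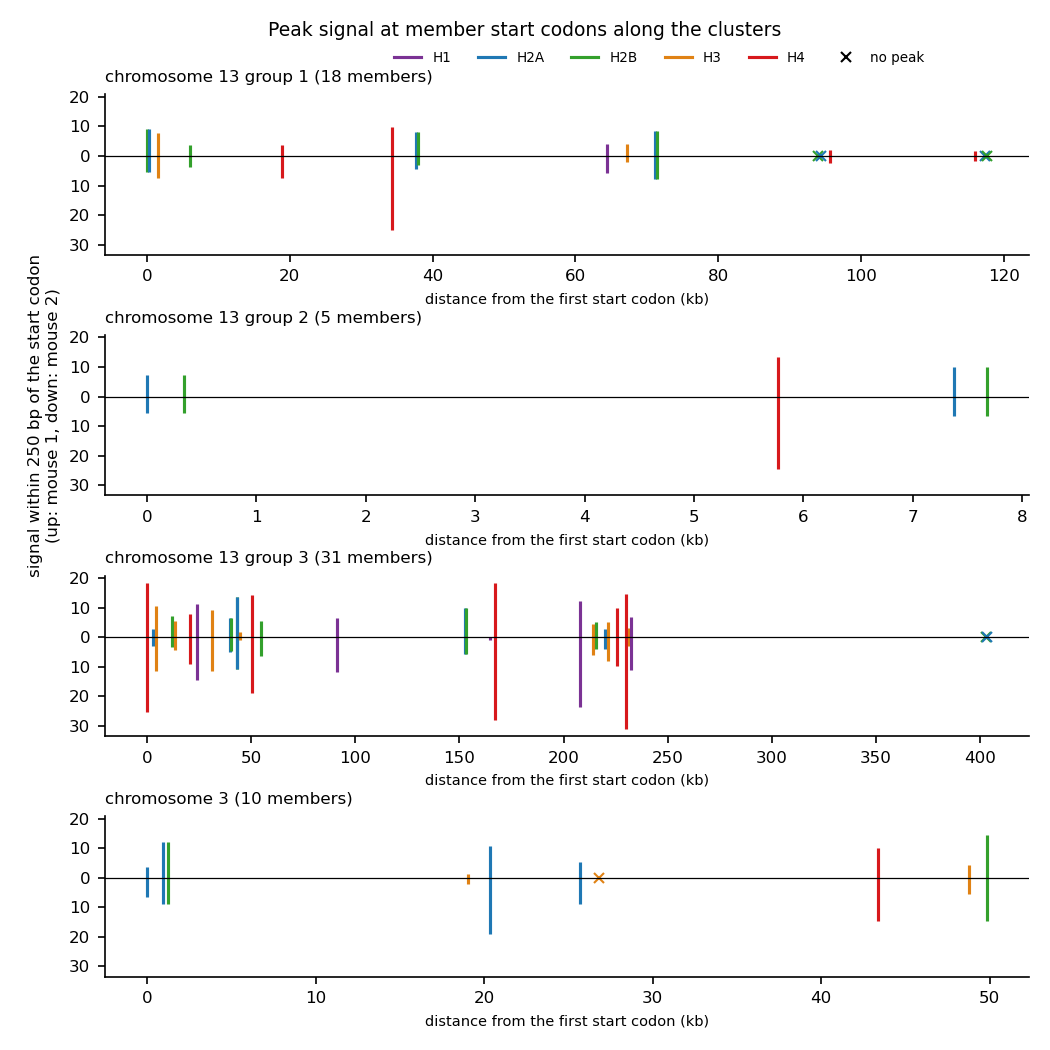
Signal within 250 bp of each member's start codon (bars up for mouse 1, down for mouse 2, crosses where there was no peak) against distance from the first start codon of the group (kb) for the 4 largest clusters. In the group of 31 members no peak is drawn at the germline pair at the far right.

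Outside the promoter, most members shared the histone stem-loop. A match to the histone stem-loop consensus lay within 150 bases after the stop codon in 62 of 67 members, and in 2 of 21486 other genes, H2afx and H2bfm. Members without a match were Hist1h2an, Hist1h2bp, Hist1h2bq, Hist1h2br and Hist2h2be. The stem differed by class: all 49 matches in H1, H2A, H2B and H3 began with GGCTC, whereas 11 of 13 in H4 began with GGCCC and 2 with GGTCC, each with the complementary right arm. An element of each kind is shown, with the stem-loop in capitals.
Hist3h2a, chr11:58955167-58955192, plus strand: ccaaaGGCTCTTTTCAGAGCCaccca
Hist1h4c, chr13:23698084-23698109, minus strand: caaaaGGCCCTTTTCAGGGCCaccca
Hist1h4j, chr13:21735432-21735457, plus strand: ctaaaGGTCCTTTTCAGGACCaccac
The stem-loop lay wholly in a cut-rate run in 35 of 62 genes in mouse 1 and 39 in mouse 2, and overlapped a footprint in 3 and 7. By class it lay in a run in 11 of 13 H4 genes in each mouse and in 6 of 17 H2A genes in each mouse. The first 400 bases from the start codon were covered by runs to a median of 100% in H4 genes and 53.3% in H2A genes in mouse 1, and 100% and 45.8% in mouse 2. In H3 genes these medians were 54.8% and 72.5%. Over all open protein-coding genes they were 100% in each mouse, beside 93.2% and 100% over open members.

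Genes that act on histone genes were open throughout. All 30 genes of a list of histone gene transcription, mRNA processing and deposition factors had a promoter peak in both mice, beside 56.5% of all genes, with medians of 8.11 and 21.2. Among them Npat, the coactivator, had 22.6 and 44.9, Hinfp, whose product binds the H4 element, 18.4 and 33.8, Nfya of the CCAAT-binding NF-Y complex 21.3 and 50.9, and Slbp 8.48 and 21.6. All 30 were higher in mouse 2, as were 11922 of the 12285 genes open in both mice. Of 11 replication-independent histone variant genes, most of which are polyadenylated and expressed outside S phase too, 10 were open in both mice. H2afz (13.7 and 35.0), H2afx (22.6 and 28.5) and H3f3b (18.9 and 22.6) were above the medians of all genes in both mice. H2afy (2.71 and 9.05), H1f0 (1.2 and 4.79) and H1fx (0.56 and 2.07) were open in both mice and below both medians, and H2afy2 had 0.38 in mouse 2 alone.

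The tissue label was checked against marker promoters. All 14 thymocyte markers had a promoter peak in both mice, beside 56.5% of all protein-coding genes. So did 2 of 5 B-cell, 1 of 5 myeloid, 1 of 5 thymic epithelial and 3 of 5 stromal and endothelial markers. Of markers of tissues outside the thymus, 2 of 6 did. With so few genes per list, counts near the share over all genes tell little about the tissue. The libraries held 59484 peaks in mouse 1 and 72913 in mouse 2.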

How the data were processed

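Thymus DNase-seq of 2 mice was used, in mm10 (GRCm38) coordinates, per the labels. Per library, 4 files were used: a shorter and a longer peak list, base runs for which the authors deposited an FDR p-value of the local cut rate below 0.05, and footprints that carry 1 constant other value as deposited, of which the positions were used. The aligner, callers and treatment of repeated reads were not given in the sources used here. The deposited signal of a peak is a depth-normalised height: all values were whole multiples of 1 step per library (100% within 0.1 steps), 0.00638 in mouse 1 and 0.00504 in mouse 2. Peaks were listed per library.

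The shorter peak list was used. Genes and start codons came from GENCODE M21 and sequence from the GRCm38 C57BL/6J reference, while the mice are hybrids with CAST/EiJ. For each gene the strongest peak overlapping 1000 bp either side of any start site by at least 1 bp was taken, with footprints centred in the window and its share in merged runs (bedtools 2.31.1). Uniqueness is the share of 31-base words of the window found once in the reference. Motifs were exact letters on both strands. Overlaps were tested on simulated data with planted peaks. Python 3.11.15, numpy 2.4.6 and pandas 2.3.3 were used.

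The members, lists and comparisons were chosen with earlier results of these data known. Named genes were, per class, the 3 highest and 3 lowest by mean signal, members without a peak in both mice, members outside the largest cluster and germline members. Other members are named where they share a peak or site with these or complete a set, chosen after their values were seen. The longer list, other windows, single mice and stricter filters were tried as alternatives.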

Additional observations from a re-analysis of the deposited data

How the results depend on the processing

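The open call rests on 2 libraries. With each mouse left out in turn, 58 to 60 members were open, the median signal was 6.98 to 8.39, the median footprint number over all members 10 to 11, and the median run share over all members 45.7 to 51.7%. Averaged over the mice, the main medians were 7.69 for signal, 10.5 for footprints and 48.7% for run share. Values that scale with the window moved with it: footprints to 5.5 and run share to 96.5% at 250 bp, and to 16 and 30.8% at 2500 bp, where the signal rose to 8.98. Run share was 41.3% for runs with an FDR up to 0.001, an alternative added after seeing the data.

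Restricting the members left fewer: 38 of 41 that start over 1000 bp from any other member were open, and 9 of 11 with at least 90% unique words, whose median signal was 10.5 averaged over the mice (7.82 in mouse 1 and 13.2 in mouse 2). The median log2 ratio of the mice, -0.05, lay close to 0 and changed sign at 2500 bp (0.14) and at the start codon (0.023 with 1000 bp and with 250 bp either side, both added after seeing the data). Under these settings the median over all genes was 1.26 at 2500 bp and, at the start codon, 1.255 with 1000 bp and 1.248 with 250 bp either side. The count of open members and the total motif count stayed within 1.5 times their main values under the other alternatives. So did the class counts checked for the H4 element, octamer, E2F site, CCAAT box and AC box. The GC box moved more. It was found in 28 members, in 45 from 500 bases before to 100 after the start, and in 18 before the start codon. No paired analysis was possible because there is 1 group.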
